A study of Mus musculus with 23 samples.

Results

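The change between birth and postnatal day 10 in the crypt-to-villus expression gap of the mouse small intestine was measured from 12 of the 23 RNA-seq libraries of the series. For each gene the gap is the log2 expression in crypt cells minus that in villus cells, and the interaction is the gap at P10 minus the gap at P0. A negative interaction means that the gene moved toward the villus side between these ages, and a positive one that it moved toward the crypt side. All groups came from medial small intestinal epithelium of CD1 mice, an outbred stock, loosened with EDTA and sorted by flow cytometry. Cells stained for Epcam, an epithelial surface protein, and for CD44 were called crypt, and cells with Epcam but without CD44 were called villus. The 4 groups were P0 crypt, P0 villus, P10 crypt and P10 villus, with 3 libraries each, and no group carried a transgene or received a treatment according to the labels. No label states that the replicates of a group come from different mice, so every p-value below rests on library-to-library spread that may be technical.

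In the adult small intestine, stem cells marked by Lgr5 divide at the crypt base under Wnt signalling, and their daughters become absorptive or secretory cells as they move onto the villus. In mice the crypts form after birth, from proliferating pockets between the villi, and Paneth cells, which secrete defensins at the crypt base, mature in the same weeks. Milk fat and lactose are the main nutrients in this period, and the villus enterocytes of suckling mice carry lactase and the apparatus for chylomicron assembly.

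Depth was similar across libraries, with 23545159 to 34075619 counts on genes. The replicate 1 libraries at P0 stood apart from the other P0 libraries. CPM stands for counts scaled to the same library total. Summed CPM of 27 stem cell genes were 1812 in the replicate 1 P0 villus library against 945.9 and 1051 in its partners, and those of 24 Paneth cell genes were 1356 against 5011 and 3718. In P0 crypt, summed CPM of 34 enteroendocrine genes were 2579 in replicate 1 against 863.3 and 769.6, those of 38 lipid absorption genes were 49310 against 12330 and 22980, and those of 24 mesenchyme and smooth muscle markers were 102.7 against 15.91 and 43.85. The comparison was set to be given with all 12 libraries and without both P0 replicate 1 libraries, which leaves 10. The main count of calls in the interaction is given both ways, but some gene and list values are given for 10 only. An interaction printed without its fit is from the 10 libraries. The sums above and the later calls on the same lists rest on the same values. The sums are thus no separate support for those calls. The sort markers followed the labels in every library. Cd44 ranged from 34.5 to 88.1 CPM in the crypt libraries and from 3 to 28.4 CPM in the villus libraries, and Epcam from 1012 to 1899 CPM in all 12. In the P0 replicate 1 libraries Cd44 was at 47.4 CPM in crypt and 11.7 in villus, between its partners in crypt and the highest of the 3 in villus. Whether these 2 libraries came from less pure sorts or were exchanged with others was not tested, and every P0 gap with 12 libraries includes them.

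Properties of the libraries also moved with the groups. The mean length of the counted transcripts was 3888 ± 164 bases (SD, n = 3) for crypt and 3554 ± 255 for villus at P0, and 4134 ± 108 for crypt and 3930 ± 83.3 for villus at P10. Mitochondrially encoded genes held 5.14%, 10.7% and 11.7% of the counts in the P0 villus libraries, and 2.98% to 5.91% in the libraries of the other groups. The P0 villus libraries 2 and 3 thus had the shortest transcripts and the highest mitochondrial share of the 12.

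**Figure D1:**
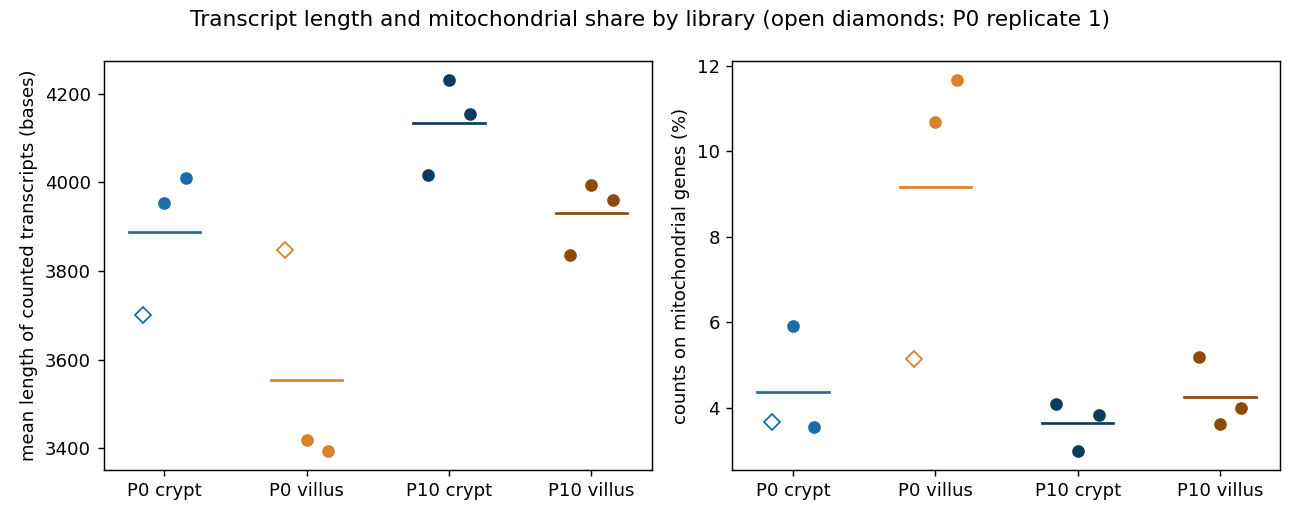
Mean length of the counted transcripts (left, bases) and share of counts on mitochondrial genes (right, percent) in each of the 12 libraries, by group. Points are libraries, horizontal lines are means of 3, and open diamonds are the P0 replicate 1 libraries. The P0 villus replicates 2 and 3 lie apart from all others in both panels.

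With all 12 libraries, no gene of 15488 tested had an interaction past the threshold (percent called 0). In edgeR's quasi-likelihood test, with p-values adjusted by Benjamini-Hochberg, the smallest adjusted p was 0.684, and 996 genes had an unadjusted p under 0.05, of which 382 were higher and 614 lower. On the same libraries limma-voom called 0 genes and DESeq2 called 11, of which 2 were higher. Without both P0 replicate 1 libraries, edgeR called 2037 of 15756 genes (12.9%), 644 of them toward the crypt (4.09%) and 1393 toward the villus (8.84%). Of the 2034 of these that were also tested with 12 libraries, 2032 had the same sign there, and 401 had an unadjusted p under 0.05. These counts share 10 libraries and are not independent.

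The count rested on particular libraries. Left out of the 12 in turn, only the P0 villus replicate 1 library gave calls, 1272 of 15941 genes (7.98%), and each of the other 11 gave 0. From the 10 libraries, leaving out P0 crypt replicate 3 or P10 villus replicate 2 lowered the count to 4 genes each. Counts were 647 without P0 villus replicate 2, 1128 without P0 villus replicate 3, 690 without P10 crypt replicate 1, 879 without P10 crypt replicate 3 and 1020 without P10 villus replicate 3. They were 1937, 1744 and 2409 without P0 crypt replicate 2, P10 crypt replicate 2 and P10 villus replicate 1. These fits have no term for the replicate number. With such a term within each age, 6 genes were called with 12 libraries and 6233 with 10, and all 2037 were among the 6233 with the same sign. The same-numbered crypt and villus libraries deviated together in all 3 pairs at P10 and in 1 of 3 at P0. The P0 values include the replicate 1 libraries, and pairing among the other P0 libraries alone was not tested. Every "not called" below refers to the fits without the replicate term. Where a P0 group was left with 1 library, that library was assumed to vary like the other groups. Every gene whose interaction is described as changed below passed the test without the P0 replicate 1 libraries and missed it with all 12.

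**Figure D2:**
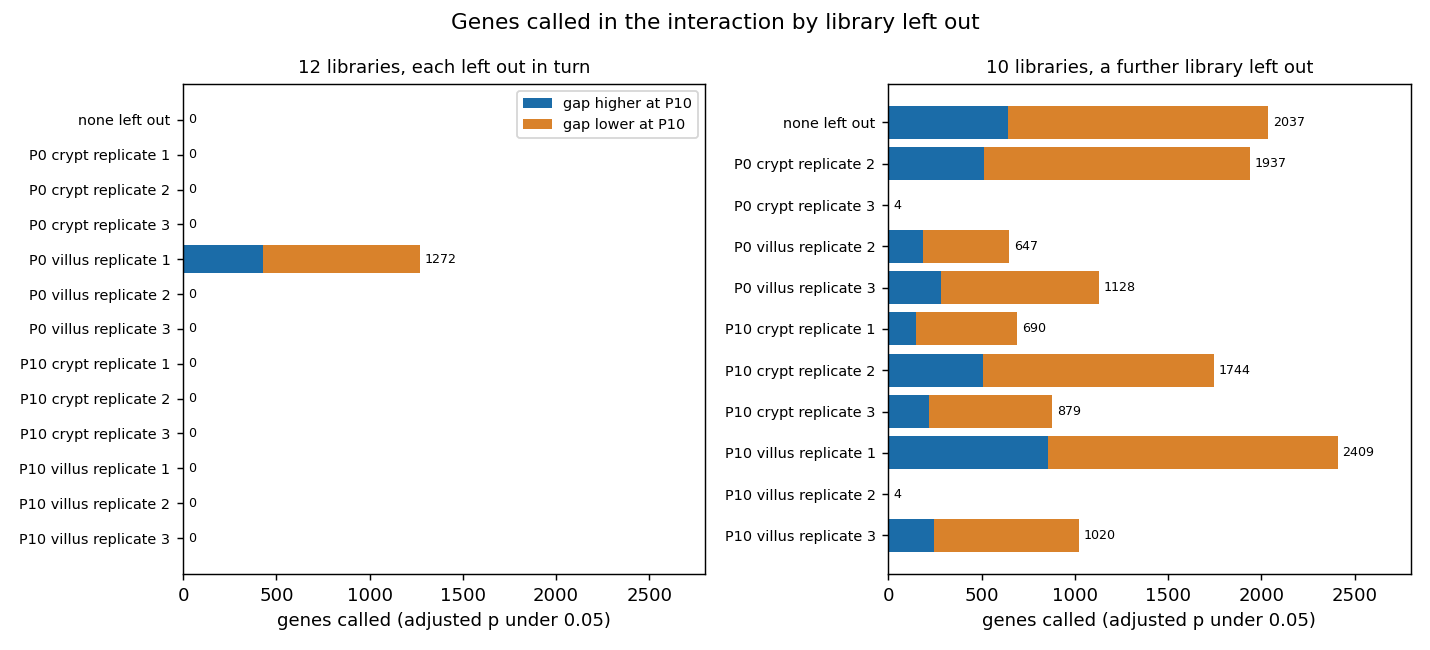
Genes called in the interaction (horizontal axis, adjusted p under 0.05) with all 12 libraries and with each left out (left), and with 10 libraries and each further one left out (right). Blue is a gap higher at P10 and orange a gap lower at P10. On the left 1272 genes were called without P0 villus replicate 1 and 0 in every other fit, and on the right the count ran from 4 to 2409.

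Most called genes had a smaller gap at P10, and so did the typical gene. Over all genes of this fit the median size of the gap was 0.671 at P0 and 0.408 at P10 (log2). With 12 libraries it was 0.477 and 0.407. Of the 2037, 1201 were higher in crypt at P0 and had a smaller gap at P10, with a median gap of 1.21 at P0 and 0.21 at P10 on the log2 scale. Another 605 were higher in villus at P0 and narrowed, from a median gap of -1.08 to -0.08. A gap widened toward the villus for 192 genes and toward the crypt for 39, and in these classes 137 and 36 genes had changed the side on which they were higher. Of the narrowed genes, 354 of the 1201 and 258 of the 605 had also changed sides. Among called genes the villus side carried more of the change. Among the 1393 genes that moved toward the villus, 1235 changed more in villus than in crypt from P0 to P10, and among the 644 that moved toward the crypt, 532 did. Over all genes the villus also changed more in this fit, with a median size of 0.566 against 0.335 in crypt (log2). With 12 libraries these were 0.429 and 0.360, so the difference was larger without the replicate 1 libraries.

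Transcript length and GC content moved with the calls. Genes that moved toward the crypt had a median transcript length of 1883 bases and a median GC content of 54.0%, those that moved toward the villus 4805 bases and 43.9%, and genes not called 2955 bases and 50.1%. When a smooth trend on length and GC content was taken out of each library, 599 genes were called (3.8%), 353 toward the crypt (2.24%) and 246 toward the villus (1.56%), and 448 of them were among the 2037 with the same sign. The share of calls toward the crypt thus went from 31.6% to 58.9%, and it was 18.0% when libraries were scaled by their size alone and 18.7% in a fit with the P3 and P6 libraries added. In the corrected fit 207 calls were narrowed from crypt, 315 narrowed from villus, 39 widened toward villus and 38 widened toward crypt. The part of transcript length in the calls of each gene group below was not tested beyond the corrected counts given. The gene groups were chosen with earlier results of these data known. Their shares beside those of all genes are thus a description and no independent support.

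**Figure D3:**
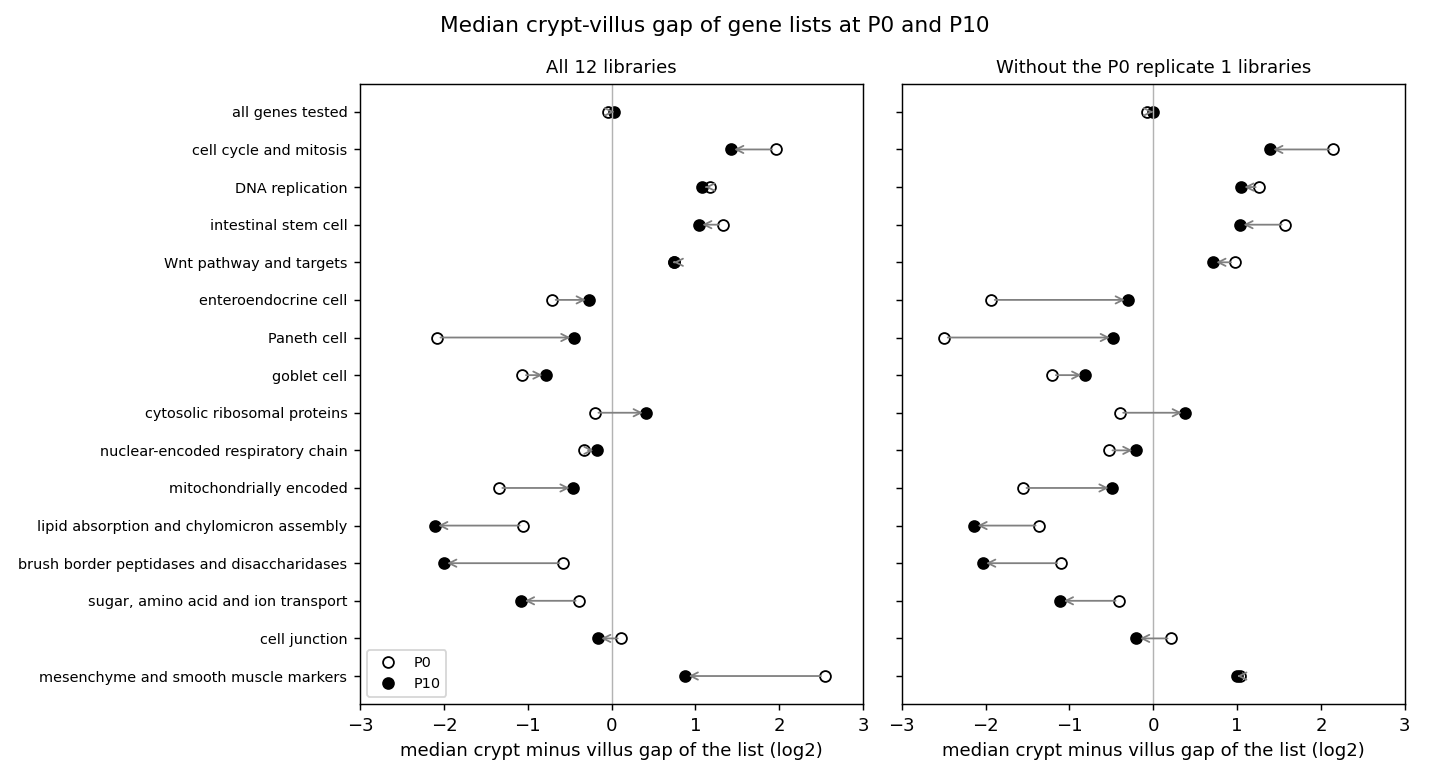
Median crypt minus villus gap (log2) of the genes of each list at P0 (open) and P10 (filled), with all 12 libraries (left) and without the P0 replicate 1 libraries (right). Arrows run from P0 to P10. Medians of the proliferation lists lie nearer to 0 from the right at P10, those of the secretory lists nearer to 0 from the left, and those of the absorptive lists further left. With scaling by library size alone and 12 libraries, the P0 gaps of all genes (-0.04 to 0.21) and of ribosomal proteins (-0.20 to 0.07) and the P10 gaps of the respiratory chain (-0.17 to 0.07) and cell junction lists (-0.17 to 0.07) lay on the other side of 0.

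Part of the genes of dividing cells became less crypt-specific. Among 44 genes of the cell cycle and mitosis, 15 moved toward the villus and 0 toward the crypt (8.84% and 4.09% of all genes did), and 3 and 0 were called after the length and GC correction (1.56% and 2.24% of all genes). The list's median gap fell from 2.15 at P0 to 1.39 at P10, a median interaction of -0.76 against -0.05 over all genes, and it was -0.52 with 12 libraries. From P0 to P10, 34 of the 44 rose in villus (23.9% of all genes did) and 0 in crypt (6.87%), while 1 fell in each (21% and 9.44%). With all 12 libraries 27 rose in villus (10%) and 0 in crypt (6.97%), and 1 and 0 fell (9.99% and 8.83%), so the rise in villus was called without leaving libraries out. Leaving out a further library gave 0 to 23 calls toward the villus and medians from -0.92 to -0.59. In bulk samples, more dividing villus cells, more RNA of these genes per cell and more crypt cells in the villus sort cannot be told apart. Summed CPM of the list was 1788, 1326 and 1551 in P0 villus and 2721, 2633 and 1832 in P10 villus, so the P10 libraries were all above the P0 ones. In crypt it was 4859, 5124 and 6019 at P0 and 6143, 6729 and 5814 at P10, where the ages overlapped.

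Ect2 and Kif11 are shown with their promoters, as members of this list that moved toward the villus. Ect2 activates the small GTPase that drives cytokinesis, and Kif11 is the kinesin that separates the spindle poles. Promoters of cell cycle genes often carry the cell cycle homology region TTTGAA and the CCAAT box. Each line gives 250 bases before and 50 after the start of transcription, 5′ to 3′ along the gene, from RefSeq on GRCm38.p6, a later build than the one the counts were made on. Capitals mark TTTGAA and CCAAT on either strand. Ect2 lies on chromosome 3 at chr3:27153829-27154128, minus strand, with 2 TTTGAA and 3 CCAAT, and Kif11 at chr19:37376132-37376431, plus strand, with 1 of each.
Ect2: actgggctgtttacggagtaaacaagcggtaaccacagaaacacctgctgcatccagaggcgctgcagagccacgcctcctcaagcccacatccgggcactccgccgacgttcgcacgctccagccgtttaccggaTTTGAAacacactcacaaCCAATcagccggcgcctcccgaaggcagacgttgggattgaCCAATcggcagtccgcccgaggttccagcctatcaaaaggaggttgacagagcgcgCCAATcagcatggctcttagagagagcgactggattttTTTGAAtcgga
Kif11: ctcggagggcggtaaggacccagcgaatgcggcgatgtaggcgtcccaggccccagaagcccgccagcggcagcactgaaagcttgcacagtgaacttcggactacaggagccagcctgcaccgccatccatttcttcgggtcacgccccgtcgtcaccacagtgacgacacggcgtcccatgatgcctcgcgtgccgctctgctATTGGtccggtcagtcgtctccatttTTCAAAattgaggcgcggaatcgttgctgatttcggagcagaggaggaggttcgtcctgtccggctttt
Of the 38 list members with a promoter in the table, 32 held TTTGAA and 30 held CCAAT, against 17.9% and 37.4% of all 32851 promoters. List members were counted with a single promoter each and the share of all promoters over every promoter, so the units differ. A match is a description of the letters, not a bound site.

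Ect2 was at 76.2, 89.9 and 115 CPM in P0 crypt, 32.2, 8.97 and 12.4 in P0 villus, 85.6, 121 and 106 in P10 crypt and 42.2, 47.8 and 35.2 in P10 villus. Crypt levels overlapped between the ages, and the 3 P10 villus libraries were all above the 3 P0 villus libraries, with P0 villus replicate 1 nearest to them. Its interaction was -1.06 ± 0.52 (SE) with 12 libraries and -1.96 ± 0.28 with 10 (adjusted p = 0.0152, edgeR), and -1.41 with the length and GC correction (adjusted p = 0.0355). Kif11 was at 157, 153 and 223 CPM in P0 crypt, 50.6, 19.4 and 25.9 in P0 villus, 156, 220 and 189 in P10 crypt and 63.1, 76.2 and 53.2 in P10 villus, and it had the same layout. Its interaction was -0.92 ± 0.43 with 12 libraries and -1.53 ± 0.31 with 10 (adjusted p = 0.0205, edgeR), and it was not called after the correction (adjusted p = 0.0772). Mki67, a marker of cycling cells, was at 328, 552 and 521 CPM in P0 crypt, 170, 151 and 116 in P0 villus, 817, 931 and 684 in P10 crypt and 382, 363 and 210 in P10 villus. All P10 libraries were above all P0 libraries of the same population, and the interaction of -0.68 ± 0.34 without the replicate 1 libraries was not called (adjusted p = 0.207, edgeR). With the replicate term it was called, at -0.66 ± 0.18 (adjusted p = 0.016, edgeR).

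Of 42 DNA replication genes, 22 rose in villus from P0 to P10 and 2 in crypt (9 and 3 with 12 libraries). Of all genes 23.9% and 6.87% did (10% and 6.97% with 12), so the crypt counts were near or below the share of all genes. In the interaction, 11 moved toward the villus and 1 toward the crypt (8.84% and 4.09% of all genes), with 2 and 1 after the correction (1.56% and 2.24%), and the median interaction was -0.28 (-0.15 with 12 libraries). Pcna, the sliding clamp of the replication fork, was at 78.9, 85.5 and 92.1 CPM in P0 crypt, 53.4, 20.6 and 26.1 in P0 villus, 78.5, 89.5 and 73.3 in P10 crypt and 54.7, 47.9 and 43.5 in P10 villus. The crypt groups overlapped, and P0 villus replicate 1 lay among the P10 villus libraries. Its interaction was -0.63 ± 0.39 with 12 libraries and -1.23 ± 0.20 with 10 (adjusted p = 0.0152, edgeR).

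Most stem cell genes rose in both compartments. Of 27 intestinal stem cell genes, 18 rose in crypt and 23 in villus from P0 to P10 (19 and 20 of 26 with 12 libraries), against 6.87% and 23.9% of all genes (6.97% and 10% with 12). In the interaction, 10 moved toward the villus and 1 toward the crypt, with 5 and 0 after the correction. Of 32 genes of the Wnt pathway and its targets 11 and 1 did, with 5 and 0. The shares of all genes were 8.84% and 4.09%, and 1.56% and 2.24% after the correction. The stem cell list had a median interaction of -0.46 with 10 libraries and -0.40 with 12, and the Wnt list -0.39 and -0.33. Olfm4, a secreted glycoprotein of stem cells and their neighbours, was at 784, 1008 and 817 CPM in P0 crypt, 255, 77.5 and 98.5 in P0 villus, 4385, 6099 and 4402 in P10 crypt and 1920, 2391 and 1473 in P10 villus. No group overlapped another of the same population, and P0 villus replicate 1 was the highest of its group. Its interaction was -1.23 ± 0.53 with 12 libraries and -2.03 ± 0.33 with 10 (adjusted p = 0.0152, edgeR), called in 8 of the 10 further fits that each left out a library.

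Lgr5, the receptor for R-spondins that marks crypt base stem cells, was at 62.0, 116 and 57.7 CPM in P0 crypt, 18.1, 12.1 and 7.40 in P0 villus, 263, 272 and 309 in P10 crypt and 119, 114 and 96.3 in P10 villus. The P10 libraries were above the P0 libraries in each population. The interaction was -1.28 ± 0.44 with 12 libraries and -1.82 ± 0.40 with 10 (adjusted p = 0.0248, edgeR), and it was not called after the correction (adjusted p = 0.101). Ascl2, a Wnt-driven transcription factor of stem cells, rose by 1.19 in crypt and 1.65 in villus (log2; adjusted p = 0.0242 and 0.00249, edgeR), but its interaction of -0.46 ± 0.41 was not called (adjusted p = 0.482). Cd44 itself, the protein used for the sort, had an interaction of -1.65 ± 0.45 (adjusted p = 0.0445, edgeR), and as the sort rests on it this is not a finding. Its sign was the same as for Olfm4 and Lgr5. The share of crypt cells in the villus sort at each age was not tested.

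**Figure D4:**
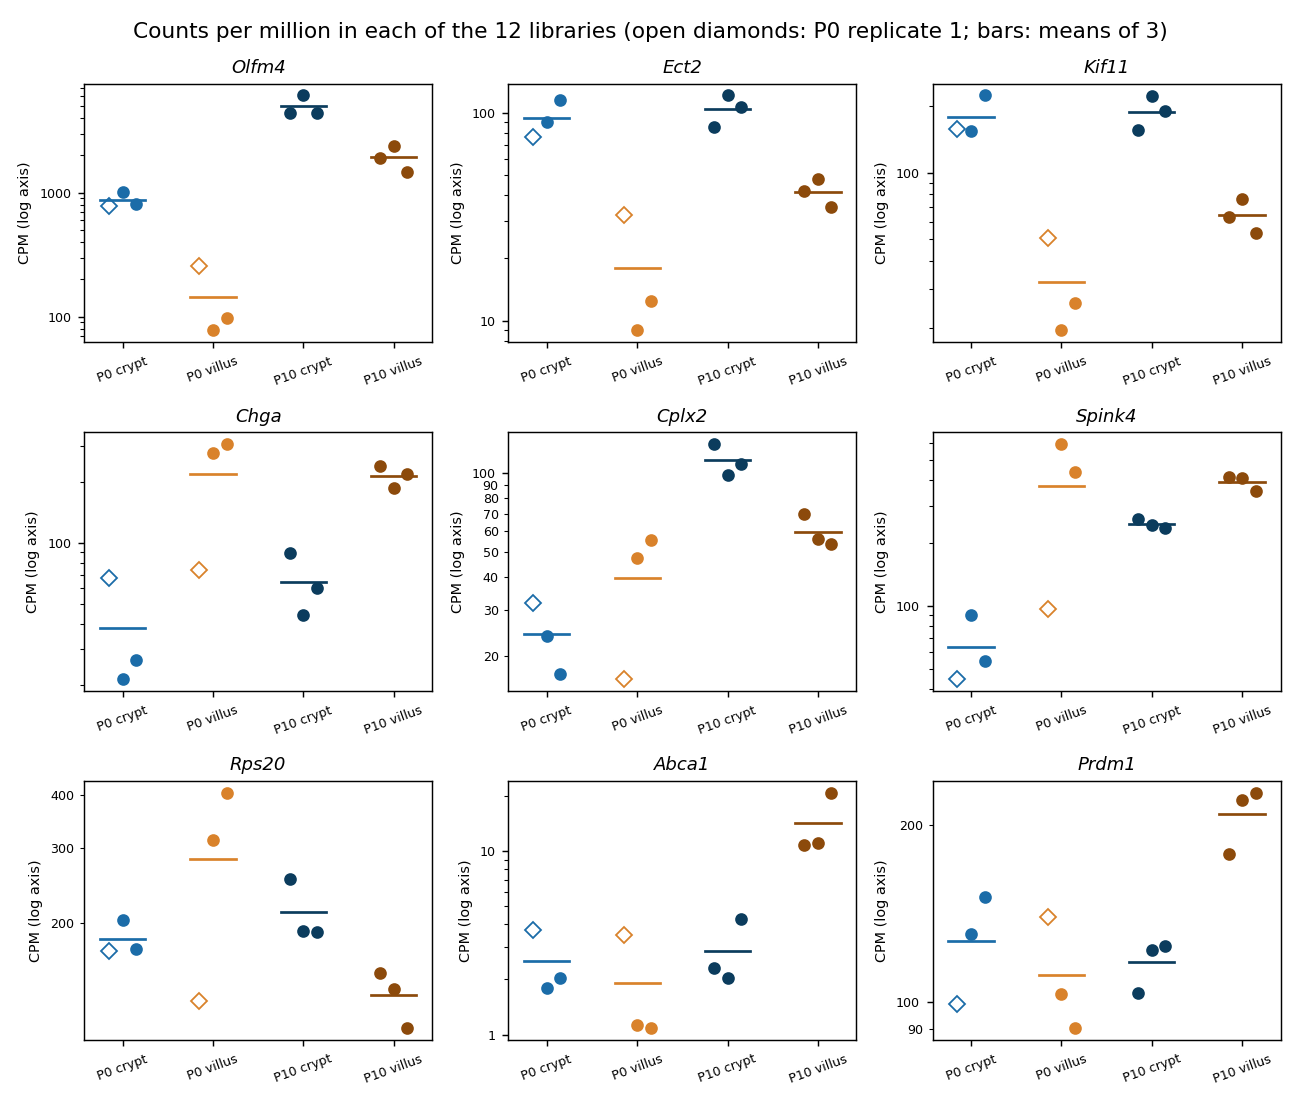
CPM on a log axis in each of the 12 libraries for 9 genes, by group. Points are libraries, horizontal lines are means of 3, and open diamonds are the P0 replicate 1 libraries. The P0 villus replicate 1 library lies nearer to the crypt levels than its 2 partners for Olfm4, Ect2, Kif11, Chga, Cplx2, Spink4 and Rps20.

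Most enteroendocrine genes moved toward the crypt. These rare cells release gut hormones, and 21 of 33 tested list members moved toward the crypt and 0 toward the villus (4.09% and 8.84% of all genes), with 7 and 0 after the correction (2.24% and 1.56%). The median gap went from -1.93 at P0 to -0.30 at P10, and the median interaction was 1.68 with 10 libraries and 0.78 with 12. Leaving out a further library gave 0 to 25 calls and medians from 1.37 to 1.91. Without P0 villus replicate 1 alone 4 members were called. From P0 to P10, 10 members rose in crypt and 14 fell in villus, where 6.87% and 21% of all genes did. With 12 libraries 1 and 2 did, below the 6.97% and 9.99% of all genes. Summed CPM was 2579, 863.3 and 769.6 in P0 crypt, 687, 2437 and 2725 in P0 villus, 2516, 917 and 1588 in P10 crypt and 1694, 1254 and 1378 in P10 villus. The replicate 1 libraries lay at opposite ends of the P0 groups, with P0 crypt replicate 1 high and P0 villus replicate 1 low, and P10 crypt replicate 1 was also the highest of its group.

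Chga and Sst are shown with their promoters as hormone-cell genes of this list. Chga encodes chromogranin A, a protein of secretory granules, and Sst encodes somatostatin, which inhibits the release of other hormones. Both are known to respond to cyclic AMP, whose response element contains TGACG, in capitals here on either strand. Chga lies at chr12:102554691-102554990, plus strand, with 1 match, and Sst at chr16:23890795-23891094, minus strand, with 2 overlapping matches, in the same window, source and build as above.
Chga: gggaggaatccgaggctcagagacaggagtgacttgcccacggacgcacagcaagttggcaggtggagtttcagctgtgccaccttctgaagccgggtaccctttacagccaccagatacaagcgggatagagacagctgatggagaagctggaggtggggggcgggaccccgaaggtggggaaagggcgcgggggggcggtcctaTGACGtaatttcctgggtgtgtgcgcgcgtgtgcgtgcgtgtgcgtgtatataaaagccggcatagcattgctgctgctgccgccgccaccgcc
Sst: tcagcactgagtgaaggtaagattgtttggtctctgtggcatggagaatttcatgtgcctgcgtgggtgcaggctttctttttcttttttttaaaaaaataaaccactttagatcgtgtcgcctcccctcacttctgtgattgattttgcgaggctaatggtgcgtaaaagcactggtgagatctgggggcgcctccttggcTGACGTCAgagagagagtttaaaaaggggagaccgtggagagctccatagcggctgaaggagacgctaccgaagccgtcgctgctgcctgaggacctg
The motif was in 14 of the 30 list members with a promoter in the table and in 20.8% of all promoters, counted in the same unlike units as above.

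Chga was at 67.0, 21.4 and 26.7 CPM in P0 crypt, 73.8, 277 and 306 in P0 villus, 89.0, 44.1 and 59.8 in P10 crypt and 240, 186 and 218 in P10 villus. The 2 populations did not overlap at P10, and at P0 the replicate 1 libraries were close to each other while the others were far apart. The interaction was 0.78 ± 0.71 with 12 libraries and 1.84 ± 0.36 with 10 (adjusted p = 0.0190, edgeR). Sst was at 101, 27.4 and 24.2 CPM in P0 crypt, 9.05, 40.2 and 79.3 in P0 villus, 89.3, 32.6 and 81.8 in P10 crypt and 30.8, 27.2 and 26.6 in P10 villus, so it was higher in every crypt than in every villus library at P10 only. Its interaction was 1.02 ± 0.97 with 12 libraries and 2.45 ± 0.58 with 10 (adjusted p = 0.0306, edgeR). Cplx2, a regulator of vesicle fusion that is not in the list, rose in crypt from 32.0, 23.9 and 17.1 CPM at P0 to 129, 98.5 and 109 at P10, and was at 16.3, 47.3 and 55.6 in P0 villus and 69.8, 55.8 and 53.7 in P10 villus. Its interaction was 1.61 ± 0.51 with 12 libraries and 2.21 ± 0.25 with 10 (adjusted p = 0.0152, edgeR), and 2.39 after the correction (adjusted p = 0.0259).

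The hormone genes Nts, Sct and Cck also moved toward the crypt. Neurotensin, encoded by Nts, was at 20.0, 4.41 and 5.74 CPM in P0 crypt and 56.7, 17.3 and 28.5 in P10 crypt, with 64.0, 178 and 189 and then 248, 89.5 and 187 in villus, and the 2 ages overlapped in both populations. Without the replicate 1 libraries it rose in crypt by 2.73 on the log2 scale (adjusted p = 0.0172, edgeR), and it was not called there with 12 (adjusted p = 0.0828). Secretin, encoded by Sct, was at 123, 54.1 and 28.7 in P0 crypt, 42.8, 319 and 341 in P0 villus, 36.3, 14.8 and 23.6 in P10 crypt and 49.2, 30.7 and 36.3 in P10 villus. It fell in villus by 3.09 with 10 libraries and by 2.60 with 12 (log2; adjusted p = 0.000381 and 0.0242, edgeR), although P0 villus replicate 1 lay among the P10 villus libraries. The interactions of Nts and Sct were 2.80 ± 0.74 (adjusted p = 0.0430) and 2.34 ± 0.53 (adjusted p = 0.0279) with 10 libraries by edgeR and 1.49 and 1.14 with 12. Cholecystokinin, encoded by Cck, had an interaction of 1.91 ± 0.51 with 10 libraries (adjusted p = 0.0410, edgeR) and 0.42 with 12. Gip, the incretin hormone of K cells, was higher in crypt at both ages, and its interaction of 1.68 ± 0.66 was not called (adjusted p = 0.124).

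Of 19 tested genes of Paneth cells, 5 moved toward the crypt and 0 toward the villus (4.09% and 8.84% of all genes), with 4 and 0 after the correction (2.24% and 1.56%). Leaving out a further library gave 0 to 7 calls toward the crypt and medians from 0.33 to 1.77. The median gap was -2.49 at P0 and -0.47 at P10, so the typical member was higher in the CD44-negative sort at both ages, and the median interaction was 1.10 with 10 libraries and 0.99 with 12. From P0 to P10, 13 members rose in crypt and 13 in villus (14 and 12 with 12 libraries), against 6.87% and 23.9% of all genes (6.97% and 10%), with median changes of 2.78 and 0.95. Summed CPM was 788.2, 828.3 and 738.3 in P0 crypt, 1356, 5011 and 3718 in P0 villus, 2255, 2371 and 2221 in P10 crypt and 4184, 5279 and 4425 in P10 villus. P10 crypt libraries were all above P0 crypt libraries, and the villus ages overlapped.

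Defensins were among the Paneth genes that moved. Defa17, a cryptdin antimicrobial peptide, was at 2.76, 4.86 and 3.62 CPM in P0 crypt, 5.70, 36.8 and 26.2 in P0 villus, 49.4, 47.4 and 43.2 in P10 crypt and 61.0, 75.1 and 47.1 in P10 villus. Its interaction was 2.22 ± 0.68 with 12 libraries and 2.48 ± 0.31 with 10 (adjusted p = 0.0152, edgeR), called in 9 of the 10 further fits, and 1.70 after the correction (adjusted p = 0.0355). Defa24 and Gm15284, the latter outside the list, had interactions of 1.96 and 2.65 with 10 libraries (adjusted p = 0.0152 and 0.0178, edgeR) that were not called after the correction. The defensins have near-identical copies, so how their reads were divided among genes is uncertain. Spink4, a protease inhibitor of secretory cells, was at 44.5, 90.4 and 54.6 CPM in P0 crypt, 96.8, 595 and 438 in P0 villus, 260, 245 and 237 in P10 crypt and 414, 411 and 355 in P10 villus. Its interaction was 1.91 ± 0.67 with 12 libraries and 2.14 ± 0.29 with 10 (adjusted p = 0.0152, edgeR).

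Of 26 tested genes of goblet cells, which make mucus, 3 moved toward the crypt and 1 toward the villus (4.09% and 8.84% of all genes), and 1 and 0 after the correction. Leaving out a further library gave 0 to 7 calls toward the crypt. The list had a median interaction of 0.16 with 10 libraries and 0.08 with 12. Tff3, a trefoil peptide secreted with mucus, was at 138, 221 and 139 CPM in P0 crypt, 376, 1559 and 1603 in P0 villus, 231, 207 and 190 in P10 crypt and 812, 681 and 746 in P10 villus. Its interaction was 1.28 ± 0.26 with 10 libraries (adjusted p = 0.0208, edgeR) and 0.99 with 12, and it was not called after the correction. Muc2, the main secreted mucin, was at 35.2, 45.6 and 34.9 CPM in P0 crypt, 120, 203 and 203 in P0 villus, 103, 131 and 128 in P10 crypt and 454, 552 and 578 in P10 villus. It rose by 1.56 in crypt and 1.38 in villus on the log2 scale (adjusted p = 0.000837 and 0.000277, edgeR). Its interaction of 0.18 ± 0.23 was not called (adjusted p = 0.633), which does not show that the gap stayed the same.

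Some genes of ribosomes and respiration moved toward the crypt. Of 44 cytosolic ribosomal protein genes, 12 moved toward the crypt and 0 toward the villus (4.09% and 8.84% of all genes), with 6 and 0 after the correction (2.24% and 1.56%), and the median interaction was 0.77 with 10 libraries and 0.62 with 12. Leaving out a further library gave 0 to 24 calls. From P0 to P10, 31 of the 44 fell in villus and 4 in crypt, where 21% and 9.44% of all genes did. With 12 libraries 8 and 0 did, against 9.99% and 8.83%. Of 34 genes that build ribosomes, 4 were called toward the villus and 0 toward the crypt, near the 8.84% and 4.09% of all genes. Their median interaction was -0.24, and -0.304 to -0.133 with a further library left out. These further fits gave 0 to 6 calls toward the villus and 0 to 1 toward the crypt. Rps20, a protein of the small subunit, was at 171, 203 and 173 CPM in P0 crypt, 131, 314 and 404 in P0 villus, 254, 191 and 190 in P10 crypt and 152, 139 and 113 in P10 villus. P0 villus replicates 2 and 3 were the highest of the 12, and crypt levels overlapped between ages. The interaction was 1.28 ± 0.44 with 12 libraries and 1.56 ± 0.25 with 10 (adjusted p = 0.0152, edgeR), and 2.04 after the correction (adjusted p = 0.0295). Rpl13, of the large subunit, had an interaction of 1.80 ± 0.27 with 10 libraries (adjusted p = 0.0152, edgeR).

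Of 42 nuclear-encoded respiratory chain genes, 8 moved toward the crypt and 0 toward the villus, with 4 and 0 after the correction (backgrounds as for the ribosomal proteins), and the median interaction was 0.31 with 10 libraries and 0.10 with 12. Of the 9 mitochondrially encoded genes tested, 2 moved toward the crypt and 0 toward the villus, and 4 did after the correction, with a median interaction of 0.997 with 10 libraries and 0.79 with 12. All 9 fell in villus from P0 to P10, with 10 and with 12 libraries. mt-Nd4, a subunit of complex I, was at 2779, 3198 and 2158 CPM in P0 crypt, 3900, 8104 and 11340 in P0 villus, 2669, 1967 and 2396 in P10 crypt and 3829, 2643 and 2886 in P10 villus. P0 villus replicates 2 and 3 were the highest, while P0 villus replicate 1 lay close to the P10 villus libraries. Its interaction was 1.11 ± 0.46 with 12 libraries and 1.43 ± 0.35 with 10 (adjusted p = 0.0311, edgeR), and it was called in 4 of the 10 further fits. The P0 villus libraries 2 and 3 also had the highest mitochondrial share and the shortest transcripts, and the part of RNA or cell quality in this was not tested.

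Few genes of lipid absorption were called. Of 37 genes of lipid absorption and chylomicron assembly, 2 moved toward the villus and 0 toward the crypt, and of 22 brush border peptidases and disaccharidases 3 and 0, against 8.84% of all genes toward the villus. The share called toward the villus was below that of all genes for the lipid list and above it for the peptidases. The median gap of the lipid list went from -1.36 at P0 to -2.14 at P10 with 10 libraries and from -1.05 to -2.11 with 12, and the peptidase list went from -1.10 to -2.04 and from -0.58 to -2.0. From P0 to P10, 22 lipid genes fell in crypt and 15 in villus (27 and 8 of 36 with 12 libraries), against 9.44% and 21% of all genes (8.83% and 9.99%), with median changes of -1.01 and -0.40. Leaving out a further library moved the median interaction of the lipid list from -1.08 to -0.234 and that of the peptidase list from -1.06 to -0.701, with 0 to 9 and 0 to 4 calls toward the villus. Summed CPM of the lipid list was 49310, 12330 and 22980 in P0 crypt, 67470, 67950 and 76430 in P0 villus, 5171, 7897 and 9711 in P10 crypt and 49760, 48900 and 61220 in P10 villus. The P0 crypt libraries were all above the P10 crypt libraries and replicate 1 was the highest of them.

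Mogat2, which rebuilds triglyceride from absorbed monoglyceride, was at 462, 185 and 298 CPM in P0 crypt, 618, 703 and 665 in P0 villus, 55.1, 75.9 and 84.0 in P10 crypt and 424, 440 and 451 in P10 villus. It was lower at P10 in every library of each population. Its interaction was -1.54 ± 0.38 with 12 libraries and -1.14 ± 0.30 with 10 (adjusted p = 0.0393, edgeR). Abca1, the exporter that loads cholesterol onto apolipoprotein A1, was at 3.71, 1.80 and 2.03 CPM in P0 crypt, 3.49, 1.13 and 1.08 in P0 villus, 2.30, 2.02 and 4.26 in P10 crypt and 10.9, 11.1 and 20.7 in P10 villus. It was highest in the 3 P10 villus libraries, and its interaction was -2.69 ± 0.70 with 12 libraries and -3.13 ± 0.58 with 10 (adjusted p = 0.0168, edgeR).

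The abundant lipid carriers were not called. Fabp1, a cytosolic fatty acid binding protein, was at 2223, 605 and 1102 CPM in P0 crypt, 3549, 6379 and 6303 in P0 villus, 91.7, 154 and 167 in P10 crypt and 1967, 1334 and 1361 in P10 villus. Its interaction was -0.63 ± 0.44 with 10 libraries (adjusted p = 0.366, edgeR). Rbp2, which carries retinol in enterocytes, had an interaction of -1.91 ± 0.58 with 12 libraries and -1.14 ± 0.46 with 10 (adjusted p = 0.125, edgeR). Apoa4, a protein of chylomicrons, had an interaction of -0.88 ± 0.53 with 10 libraries (adjusted p = 0.294, edgeR) and -1.91 ± 0.75 with 12, where P0 crypt replicate 1 was at 18870 CPM against 2889 and 6199 in its partners. Lct, the milk sugar enzyme lactase, had an interaction of -1.89 ± 0.66 with 12 libraries and -1.52 ± 0.63 with 10 (adjusted p = 0.138, edgeR), and with the replicate term it was called at -1.57 ± 0.28 (adjusted p = 0.0028, edgeR).

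Of 38 genes for transport of sugars, amino acids and ions, 6 moved toward the villus and 0 toward the crypt (8.84% and 4.09% of all genes). After the correction 1 and 1 did, about the share of all genes (1.56% and 2.24%). Slc9a3, the apical sodium-proton exchanger, had the lowest interaction of the genes named by the rule for size. It was at 40.5, 15.8 and 47.8 CPM in P0 crypt, 86.2, 13.5 and 30.4 in P0 villus, 9.66, 18.1 and 17.5 in P10 crypt and 71.8, 91.5 and 109 in P10 villus, so the populations overlapped at P0 and not at P10. Its interaction was -2.26 ± 0.80 with 12 libraries and -3.15 ± 0.72 with 10 (adjusted p = 0.0289, edgeR), and it was not called after the correction (adjusted p = 0.0573). Anpep, the brush border aminopeptidase N, had the same layout, at 3310, 2086 and 3983 CPM in P0 crypt, 5361, 2422 and 3577 in P0 villus, 776, 1403 and 1438 in P10 crypt and 3283, 4492 and 4342 in P10 villus. Its interaction was -1.47 ± 0.48 with 12 libraries and -1.79 ± 0.48 with 10 (adjusted p = 0.0412, edgeR).

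Of 40 intestinal transcription factors, 7 moved toward the villus and 1 toward the crypt (8.84% and 4.09% of all genes), with 3 and 0 after the correction (1.56% and 2.24%). Prdm1, the repressor that keeps the suckling-type enterocyte programme, was at 99.0, 130 and 151 CPM in P0 crypt, 140, 103 and 90.1 in P0 villus, 104, 123 and 124 in P10 crypt and 178, 220 and 227 in P10 villus. It was highest in the 3 P10 villus libraries and overlapped among the others, with an interaction of -1.02 ± 0.28 with 12 libraries and -1.40 ± 0.20 with 10 (adjusted p = 0.0152, edgeR). Hnf4g, a nuclear receptor that drives enterocyte genes, had an interaction of -1.10 ± 0.47 with 12 libraries and -1.77 ± 0.34 with 10 (adjusted p = 0.0178, edgeR). Of 30 cell junction genes, 8 moved toward the villus and 0 toward the crypt, with 3 and 0 after the correction, beside the same shares of all genes. Tjp1, the tight junction scaffold ZO-1, had an interaction of -0.77 ± 0.44 with 12 libraries and -1.51 ± 0.21 with 10 (adjusted p = 0.0152, edgeR).

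Genes called with 10 libraries were ranked by size, if at 3 or more mean log2 CPM and of the same sign with 12. The 10 lowest interactions of these were those of Slc9a3, Gm8989, Mgat4c, Lrrc19, Kbtbd8, Cpeb4, 9130208D14Rik, Slc10a5, Xkr9 and Tnks. They ran from -3.15 to -2.10, and after the correction Cpeb4, 9130208D14Rik and Tnks were still called. The 10 highest were those of Nts, Gm15284, Defa17, Sst, Sct, Cplx2, Spink4, Defa24, Cck and Mgll, from 2.80 down to 1.87, of which Nts, Sst, Sct and Cck are in the enteroendocrine list and Defa17, Spink4 and Defa24 in the Paneth cell list. Cpeb4, which binds messenger RNA and controls its translation, was at 69.8, 57.5 and 50.9 CPM in P0 crypt, 155, 56.6 and 49.5 in P0 villus, 15.1, 26.0 and 27.7 in P10 crypt and 81.9, 95.1 and 118 in P10 villus. It fell in crypt and its interaction was -1.55 ± 0.54 with 12 libraries and -2.15 ± 0.35 with 10 (adjusted p = 0.0152, edgeR). B4galt1, a galactosyltransferase, was among the few that widened toward the crypt, at 9.16, 7.18 and 6.54 CPM in P0 crypt, 6.51, 10.3 and 9.94 in P0 villus, 41.6, 35.9 and 48.9 in P10 crypt and 24.2, 26.0 and 28.4 in P10 villus. It was higher at P10 in each population, with an interaction of 0.91 ± 0.28 with 12 libraries and 1.22 ± 0.21 with 10 (adjusted p = 0.0159, edgeR). Cyp2d26, a cytochrome P450 enzyme, had the smallest adjusted p of the 12-library fit (0.684), with an interaction of -1.41 ± 0.26, and -1.17 ± 0.22 with 10 libraries (adjusted p = 0.0169, edgeR).

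Markers of other cell types were measured beside these results. Of the mesenchyme and smooth muscle list, 18 genes were tested with 12 libraries and 17 with 10. edgeR called 0 in each, 2 and 1 had an unadjusted p under 0.05, and the median interaction was -1.68 and -0.16. Col3a1, a fibroblast collagen, was at 16.5, 1.42 and 6.63 CPM in P0 crypt and 0.37, 0.25 and 0.38 in P0 villus, with 6.09, 0.86 and 2.24 in P10 crypt and 1.38, 1.43 and 0.54 in P10 villus, so it was highest in P0 crypt replicate 1. Summed CPM of the 24 markers ranged from 15.9 to 103 in P0 crypt, 11.6 to 24.8 in P0 villus, 12.8 to 40.3 in P10 crypt and 16.6 to 28.0 in P10 villus, and 0 of them were at 0 in every library.

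The immune list had median interactions of -1.05 with 12 libraries and -0.04 with 10. edgeR called 0 of 14 and 0 of 15 tested genes, and 2 and 2 had an unadjusted p under 0.05. Summed CPM of its 29 markers ranged from 114 to 288 in P0 crypt, 209 to 432 in P0 villus, 49.2 to 75.8 in P10 crypt and 85.0 to 157 in P10 villus. The list of endothelial, neural and blood markers had median interactions of -0.49 and 0.54. edgeR called 0 of 9 and 0 of 10 tested genes, and 2 and 2 had an unadjusted p under 0.05. Summed CPM of its 24 markers ranged from 25.3 to 63.3 in P0 crypt, 53.3 to 64.9 in P0 villus, 20.8 to 28.5 in P10 crypt and 67.0 to 108 in P10 villus, where the P10 populations did not overlap, and 1 of them, the embryonic globin Hbb-y, was at 0 in every library. Ret, a receptor of enteric neurons singled out after its values were seen, made up most of that level in P10 villus, at 47.4, 65.6 and 89.3 CPM of the 67.0, 86.9 and 107.7 summed. With 10 libraries its interaction of -1.40 was not called (adjusted p = 0.0606, edgeR). With the replicate term it was called, at -1.385 ± 0.163 (adjusted p = 0.000243, edgeR). The level of 1 gene does not show which cells it came from. Whether cells of other types had a part in the epithelial gene groups above was not tested.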

How the data were processed

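RNA-seq was made from poly(A) RNA with a stranded kit, per the labels' protocols. The deposited values are raw read counts per gene symbol, with 47593 symbols and 5 summary lines per library, and the summary lines were left out. Trimming with Trim Galore, alignment with STAR, counting with HTSeq and build mm9 are listed, with no version, per the submitters' processing notes. The strand setting of the counting is not given in the sources used here. Reads carry no molecular identifiers.

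Counts of 12 libraries were fitted in R 4.3.3 with edgeR 4.0.16 (filterByExpr, minimum count 10 and minimum total 15, TMM scaling, robust quasi-likelihood, 1 coefficient per group). The interaction and the 4 simple contrasts were tested with Benjamini-Hochberg adjustment over genes and a threshold of 0.05. CPM used TMM-scaled library sizes, and log2 CPM a prior count of 2. Alternatives were DESeq2 1.42.0, limma 3.58.1 voom, other scalings and filters, splines with 5 degrees of freedom on length and GC content (98.88% of tested genes had a value), a replicate block within age, and each library left out. The length and GC correction and further alternatives on 10 libraries were chosen after seeing the data. Fits were tested on simulated data with less spread than the 12 libraries had, no outlying libraries and changes in P10 crypt alone. This does not show how the fits behave on the present libraries.

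The members and the 41 gene lists were chosen with earlier results of these data known. The rule for naming genes took called genes of the 12-library fit, which were 0. It was then applied to the fit of 10 libraries, among genes of the same sign with 12 libraries, taking the 10 highest and 10 lowest. It also took from each list the 4 largest called and up to 2 uncalled members, and fixed markers, of which part are printed. Same-numbered crypt and villus libraries had correlations of their deviations of -0.16, 0.401 and 0.0131 at P0. At P10 these correlations were 0.673, 0.599 and 0.628. The numbers thus pair the libraries at P10, while at P0 pairing was not shown. The P0 values include the replicate 1 libraries, which stood apart, and pairing among the other P0 libraries alone was not tested. As the interaction needs both ages, it was fitted without a block, and the block is an alternative. For the gap at P10 the block moved the count from 3576 to 4058 with 12 libraries. With 10 libraries it moved it from 5404 to 8505, by over 1.5 times.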

Additional observations from a re-analysis of the deposited data

Results flagged for a closer look

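The change of the crypt minus villus gap between P0 and P10 passed edgeR's quasi-likelihood test for 2037 genes when the P0 replicate 1 libraries were left out. The test is of the difference between the gaps itself. With all 12 libraries the count was 0. With 10 it was 599 after the length and GC correction, and 4 when P10 villus replicate 2 was also left out. The difference was thus not shown across fits.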

How the results depend on the processing

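With 12 libraries the interaction had 0 calls in edgeR, 11 in DESeq2, 6 with a replicate block within age and 15 with that block and length and GC offsets, and 2037 without both P0 replicate 1 libraries. Leaving out each library gave 0 to 1272. Without the P0 replicate 1 libraries, 3082 genes were called by DESeq2, 599 with length and GC offsets and 6233 with the replicate block, and leaving out a further library gave 4 to 2409. At P10 each library correlated best with its own number, and at P0 only number 2 did. The P0 correlations include the replicate 1 libraries, so they do not decide whether the other P0 libraries are paired.

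Calls between crypt and villus at P0 were 3911 with 12 libraries, 7346 without both P0 replicate 1 libraries and 1751 to 6743 with each library left out, and at P10 3576, 5404 and 1826 to 4817, or 5787 with the block and offsets. Calls from P0 to P10 in crypt were 2446 with 12 libraries, 4180 with the block and offsets and 950 to 3740 with each library left out, and in villus 3096 with 12 libraries, 7086 without both P0 replicate 1 libraries and 907 to 6488 with each left out. The cause of these shifts was not tested.

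Of the 50 named genes, 3 had the other sign in some fit. Cck ran from -0.19 to 1.47 and Gip from -0.19 to 1.22 with each library left out, and Gip was at -0.087 with the block and offsets and -0.12 with offsets. Muc2 ran from -0.072 to 0.26 with each library left out and was at -0.036 with no filter on low counts. With 2 or 3 libraries in a group, single libraries moved the counts of calls by over 1.5 times.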

Other observations

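The counts of other gene groups without the P0 replicate 1 libraries are to be read against 8.84% of all genes called toward the villus and 4.09% toward the crypt, and 1.56% and 2.24% after the length and GC correction. Of 31 genes of hemidesmosomes and basement membrane adhesion, 7 moved toward the villus and 1 toward the crypt, with 0 and 1 after the length and GC correction. Of 34 actomyosin and small GTPase genes, 5 moved toward the villus and 0 toward the crypt, with 1 and 2 after the correction. Among 34 interferon response genes 1 moved each way, with a median interaction of -0.50, and -0.85 with 12 libraries. Of 38 lysosome and endocytosis genes 1 moved toward the villus, with medians of -0.39 and -0.72 with 10 and 12 libraries. Cholesterol and sterol synthesis had 1 of 25 genes called toward the villus and medians of 0.09 and -0.0022 with 10 and 12 libraries, but leaving out a further library moved its median from -0.82 to 0.71.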
